A study of Homo sapiens with 6 samples.

Results

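DLX5, DLX3, DLX6, DLX2, PITX1, PAX9, FOXE1 and FEZF1 are 8 genes for developmental transcription factors, taken by name from the 48644 gene rows of the table. They were selected on their levels and changes in these same 6 libraries, as seen in earlier results, so their values are a description and nothing is supported with the fact that they differ. The cells were KYSE70, an established human esophageal squamous carcinoma line, grown in RPMI1640 with fetal bovine serum and stably carrying a doxycycline-inducible hairpin. The induced shTP63 group was the TP63 hairpin line after 4 days of doxycycline at 50 ng/ml (2 libraries), set against the same line without doxycycline at day 0 (1 library). The induced shSOX2 group was the SOX2 hairpin line after the same treatment (2 libraries), set against its own day 0 (1 library). Doxycycline was given to every induced library and to no uninduced one, so hairpin and drug cannot be told apart within a line. Each title carries 1 or 2 in brackets, taken here as a replicate number although it may be that of a hairpin. Both day 0 libraries carry 2. If the number is that of a hairpin, the induced libraries marked 1 have no day 0 library of their own hairpin. Pairs of induced values are given as replicate 2, then replicate 1. Nothing states that libraries came from separate cultures, so the spread between them may be technical.

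DLX genes encode homeodomain factors related to Drosophila Distal-less, which pattern the pharyngeal arches, teeth, limb ectoderm and forebrain. They lie in pairs of neighbours, and DLX3 is known for its role in the differentiating layers of epidermis. In mouse limb ectoderm, p63, the product of the TP63 orthologue, acts upstream of Dlx5 and Dlx6. PITX1 is a homeodomain factor of oral ectoderm and hindlimb, PAX9 a paired-box factor of pharyngeal pouches, teeth and esophageal lining, and FOXE1 a forkhead factor of thyroid, palate and hair follicle. FEZF1 is a zinc finger repressor known from the olfactory system and forebrain rather than from squamous lining.

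Levels are the deposited values, read as log2(RPKM + 1), a scale on which the fold of a weakly expressed gene comes out too small, and RPKM below is the value with the log undone. Depth is unknown. The uninduced shTP63 library had 16167 genes above 0, against 21530 to 23509 in the others, and it is the only day 0 library of that line. All 8 genes were above 0 in all 6 libraries. All 12 squamous markers had a mean RPKM of 1 or more, with a summed RPKM of 2665 and 1200 in induced shTP63 cells, 3129 in that line at day 0, 991 and 1204 in induced shSOX2 cells and 2001 at their day 0. The 7 thyroid markers, a tissue that FOXE1 marks, were under 1 RPKM in every library and summed to at most 0.738. Of 10 neuronal markers 8 were under 1 RPKM throughout, as were 7 of 8 leukocyte and endothelial markers, with sums of at most 8.99 and 6.64. Of the 14 columnar markers 12 were under 1 RPKM throughout, 2 of these at 0. The 14 summed to 191 and 212 in induced shTP63 cells and 268 at their day 0, and to 95.9 and 110.04 in induced shSOX2 cells and 311 at theirs. Of the 9 fibroblast markers 6 were under 1 RPKM throughout, 1 of these at 0. The 9 summed to 94.0 and 61.3 in induced shTP63 cells and 7.10 at their day 0, and to 33.0 and 163 in induced shSOX2 cells and 11.3 at theirs. The part of these marker levels in the results was not tested. In bulk RNA, fewer cells making a transcript and less transcript per cell cannot be told apart. TP63 itself was at 2.26 and 2.11 in induced shTP63 cells, against 3.99 at their day 0, and SOX2 was at 5.65 and 4.67 in induced shSOX2 cells, against 6.25 at theirs. SOX2 was at 5.55 and 5.41 in induced shTP63 cells and 5.69 at their day 0, so induced shSOX2 replicate 2 lay within the range of the other line.

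The 250 bases before the start of 6 of the 8 genes were matched in RefSeq (GRCh38.p14), namely DLX2, DLX6, PITX1, PAX9, FOXE1 and FEZF1, with 2 starts each for PAX9 and FEZF1, of which the more upstream is shown. DLX3 and DLX5 had no entry. The deposited values are on hg19 and were not placed on these coordinates. Both strands were searched for ACAAT, the core read by SOX factors, TAATT, a core read by DLX and other homeodomains, and CATG, any 6 bases and CATG, a pair of cores as read by the p53 family. Of 35116 such windows, 24.6% held the first, 23.1% the second and 0.296% the third. FEZF1 is shown because it was highest with the TP63 hairpin and lowest with the SOX2 hairpin, DLX2 because it had that order at a low level, and PAX9 because it was lower with the TP63 hairpin. Capitals mark the matches.
FEZF1 (chr7:122304751-122305000, minus strand): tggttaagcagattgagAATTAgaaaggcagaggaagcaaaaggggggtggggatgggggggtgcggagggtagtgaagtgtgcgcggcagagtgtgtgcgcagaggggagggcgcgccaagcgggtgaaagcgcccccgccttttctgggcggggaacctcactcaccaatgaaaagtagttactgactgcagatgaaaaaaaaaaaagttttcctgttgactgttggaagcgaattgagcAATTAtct
DLX2 (chr2:172102901-172103150, minus strand): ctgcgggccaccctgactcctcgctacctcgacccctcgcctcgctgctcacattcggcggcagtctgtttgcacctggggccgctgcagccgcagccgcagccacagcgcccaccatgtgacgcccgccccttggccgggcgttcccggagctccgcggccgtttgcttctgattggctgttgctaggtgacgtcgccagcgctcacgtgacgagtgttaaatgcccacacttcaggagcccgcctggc
PAX9 (chr14:36657318-36657567, plus strand): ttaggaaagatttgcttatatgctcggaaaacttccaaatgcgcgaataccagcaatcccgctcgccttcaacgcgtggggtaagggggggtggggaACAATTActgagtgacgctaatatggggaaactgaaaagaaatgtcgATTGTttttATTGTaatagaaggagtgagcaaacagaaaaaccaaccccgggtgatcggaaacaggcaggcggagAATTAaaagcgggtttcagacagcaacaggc
The FEZF1 window shown held TAATT on the opposite strand at 233 and 8 bases before the start, printed as AATTA, and neither of the other motifs. The window of the second FEZF1 start, not shown, held ACAAT at 149 and TAATT at 247 bases before that start. The FEZF1 windows overlap, and this TAATT is the same site as the one 8 bases before the upstream start. The window of the second PAX9 start held ACAAT at 174. Of the 6 genes, FEZF1 and PAX9 thus held ACAAT and TAATT in at least 1 window. In GENCODE version 29 the FEZF1 window overlaps an exon of FEZF1-AS1 and the DLX2 window one of DLX2-DT, and the PAX9 window overlaps no exon. The DLX2 window held none of the 3, and 68.0% of its bases were G or C, against 52.8% for FEZF1 and 46.8% for PAX9. The PAX9 window shown held ACAAT at 153 bases before the start and, printed as ATTGT, at 106 and 97. It held TAATT on the opposite strand at 151 and 31 bases before the start, the first sharing 3 bases with an ACAAT match. The windows of DLX6, PITX1 and FOXE1 held none of the 3 motifs. A match describes letters and not a bound site.

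Over all 10536 genes with a mean RPKM of at least 1, limma was fitted to the 6 libraries, with a call at a Benjamini-Hochberg adjusted p under 0.05. The filter passed 5 of the 8 genes, namely DLX5, DLX3, DLX6, PITX1 and FEZF1. DLX2, PAX9 and FOXE1 had a mean RPKM of 0.925, 0.790 and 0.642 and were not tested.

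DLX5, whose product drives jaw and bone development and is expressed in limb ectoderm, was at 3.72 and 3.43 in the induced shTP63 libraries, against 2.03 in the uninduced one. In the SOX2 hairpin line it was at 1.12 and 0.73 after induction, against 1.67 before it. The induced shTP63 libraries were thus the highest of the 6 and the induced shSOX2 libraries the lowest, and no groups overlapped. As RPKM, DLX5 averaged 11.0 in induced shTP63 cells and 3.09 at their day 0, and 0.915 in induced shSOX2 cells and 2.17 at theirs. The log2 change was 1.55 ± 0.33 in the shTP63 line and -0.74 ± 0.33 in the shSOX2 line (limma SE, day 4 n = 2, day 0 n = 1). Between the induced lines, shTP63 minus shSOX2, it was 2.65 ± 0.27 (SE, n = 2 each), a ratio of 12.0 in mean RPKM. The libraries at day 0 differed by 0.37, about the gap between both induced shSOX2 libraries of 0.38, so these neighbours in the order did not differ beyond that spread.

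DLX3 had the highest level of the 8 in induced shTP63 cells, where it stood at 4.78 and 3.89, against 2.64 at day 0 of that line. In the shSOX2 line it was at 1.66 and 2.75 after induction, against 1.02 before it. It was thus higher after induction in both lines, unlike DLX5, and the induced shSOX2 libraries lay on either side of the uninduced shTP63 library. Mean RPKM was 20.2 in induced shTP63 cells and 5.22 in uninduced ones, and 3.93 in induced shSOX2 cells and 1.02 in uninduced ones. The log2 change was 1.70 ± 0.54 in the shTP63 line and 1.18 ± 0.54 in the shSOX2 line, and 2.14 ± 0.44 between the induced lines (limma SE). The replicates of DLX3 were the most spread of the 8, 0.89 apart in induced shTP63 cells and 1.09 in induced shSOX2 cells. The uninduced lines already differed by 1.62, and with the day 0 libraries swapped between the lines the change was 3.32 for shTP63 and -0.44 for shSOX2, so the direction in the shSOX2 line depends on its day 0 library.

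DLX6, the neighbour of DLX5 and its partner in jaw patterning, was at 2.10 and 1.78 in induced shTP63 cells, against 1.46 at day 0. In the shSOX2 line it was at 1.08 and 1.68 after induction, against 1.53 before it. The shTP63 groups did not overlap, while the induced shSOX2 libraries straddled their day 0. Its log2 change was 0.48 ± 0.35 in the shTP63 line, -0.15 ± 0.35 in the shSOX2 line and 0.56 ± 0.29 between the induced lines (limma SE). DLX6-AS1, an antisense RNA that spans DLX6, was at 0.75 and 0.44 in induced shTP63 cells, against 0.46 at day 0, and at 0.65 and 0.33 in induced shSOX2 cells, against 0.36. In the GENCODE version 29 annotation it shares no exon with DLX6, but no strand-specific step is given, so reads of the genes cannot be told apart where they overlap.

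DLX2, needed in mouse for forebrain interneurons and upper jaw, was low throughout. It was at 1.69 and 1.18 in induced shTP63 cells, against 0.94 at day 0, and at 0.26 and 0.54 in induced shSOX2 cells, against 0.57. The order of groups was that of DLX5, with a mean RPKM of 1.75 in induced shTP63 cells and 0.326 in induced shSOX2 cells. The day 0 library of the shSOX2 line lay within 0.03 of one induced library of that line, a gap below the 0.29 between both induced libraries.

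Adjacent DLX genes on chromosomes 2, 7 and 17 face each other on opposite strands, and their partners outside the 8 are DLX1, beside DLX2, and DLX4, beside DLX3. DLX1 was at 1.76 and 1.48 in induced shTP63 cells, against 1.13 at day 0, and at 1.04 and 1.11 in induced shSOX2 cells, against 1.02. DLX4 was at 1.82 and 2.25 in induced shTP63 cells, against 1.49 at day 0, and at 1.32 and 1.37 in induced shSOX2 cells, against 0.76. Both were highest in the induced shTP63 libraries, but with differences from the induced shSOX2 libraries of 0.54 ± 0.23 for DLX1 and 0.69 ± 0.25 for DLX4, which did not pass (limma adjusted p = 0.219 and 0.171). The difference was larger for DLX5 than for DLX6, for DLX3 than for DLX4 and for DLX2, at 1.04 as a difference of means, than for DLX1. The 8 were chosen with earlier results of these data known, and DLX1 and DLX4 were not among them. The difference within a pair was not tested. Summed over all 6 DLX genes, RPKM was 49.1 and 32.9 in induced shTP63 cells, against 14.0 at day 0, and 7.18 and 11.8 in induced shSOX2 cells, against 7.29.

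**Figure D1:**
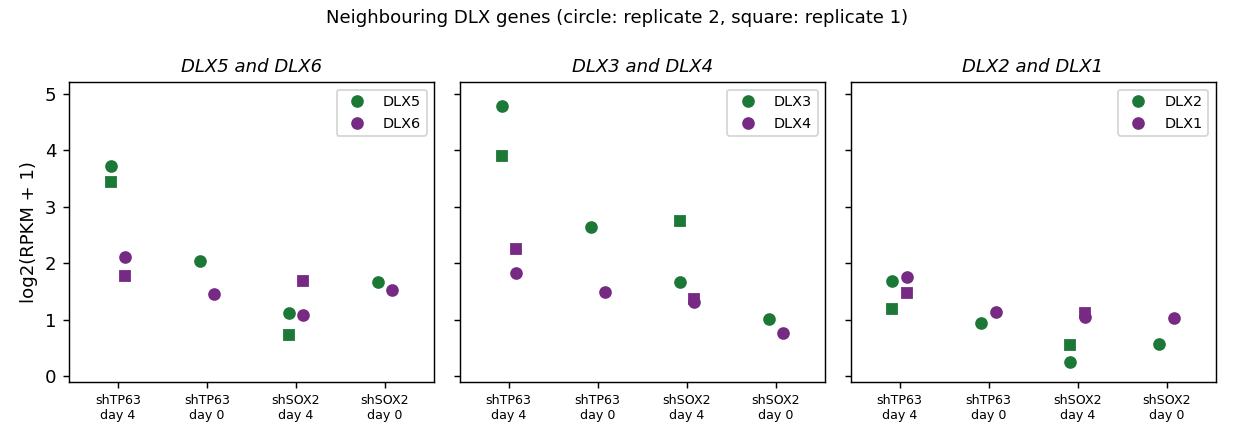
Level of each DLX gene as log2(RPKM + 1), vertical axis, in the 4 groups, horizontal axis, with 1 panel per pair of neighbours and 1 symbol per library. Each DLX gene is higher in both induced shTP63 libraries than in any other library. In those libraries DLX5 and DLX3 are at 3.43 to 4.78 and their neighbours DLX6 and DLX4 at 1.78 to 2.25.

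FEZF1 was at 3.39 and 3.60 in induced shTP63 cells, against 1.82 at day 0. In the shSOX2 line it was at 1.05 and 1.51 after induction, against 2.53 before it. The induced shTP63 libraries were the highest and the induced shSOX2 libraries the lowest, as for DLX5, but here the uninduced shSOX2 library stood 0.71 above the uninduced shTP63 library. Mean RPKM was 10.3 in induced shTP63 cells and 2.53 in uninduced ones, and 1.46 in induced shSOX2 cells and 4.77 in uninduced ones. The log2 change was 1.67 ± 0.34 in the shTP63 line, -1.25 ± 0.34 in the shSOX2 line and 2.21 ± 0.28 between the induced lines (limma SE). With the day 0 libraries swapped between the lines the changes were 0.96 for shTP63 and -0.54 for shSOX2, smaller and in the same directions. Exons of the antisense gene FEZF1-AS1 overlap those of FEZF1, FEZF1-AS1 was not analysed here, and without strand its reads could be counted as FEZF1.

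PITX1 was the highest or next to highest of the 8 in every group, with smaller differences between groups than DLX5, DLX3 or FEZF1. It was at 4.12 and 3.46 in induced shTP63 cells, against 3.37 at day 0, and at 2.78 and 3.39 in induced shSOX2 cells, against 3.18. The lower induced shTP63 library lay only 0.09 above its day 0, and the induced libraries were 0.66 apart with the TP63 hairpin and 0.61 with the SOX2 hairpin, so none of the 4 group means stood apart from its neighbour in order by more than that spread. The log2 change was 0.42 ± 0.43 in the shTP63 line, -0.09 ± 0.43 in the shSOX2 line and 0.71 ± 0.35 between the induced lines (limma SE). An antisense transcript, AC008406.3, overlaps a PITX1 exon in GENCODE version 29 and was not analysed here.

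PAX9 was at 0.64 and 0.56 in induced shTP63 cells, against 1.39 at day 0, the only one of the 8 that was lower in both. In the shSOX2 line it was at 0.70 and 0.82 after induction, against 0.77 before it. The difference rests on the uninduced shTP63 library, since the other 5 libraries lay between 0.56 and 0.82. As RPKM it was 0.553 and 0.474 in induced shTP63 cells, against 1.61 at day 0. Exons of SLC25A21 overlap those of PAX9 and may share reads.

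FOXE1 was at 0.57 and 0.77 in induced shTP63 cells, against 0.43 at day 0, and at 0.66 and 1.07 in induced shSOX2 cells, against 0.70. The highest library, an induced shSOX2 one, held 1.11 RPKM, and the induced groups overlapped.

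**Figure D2:**
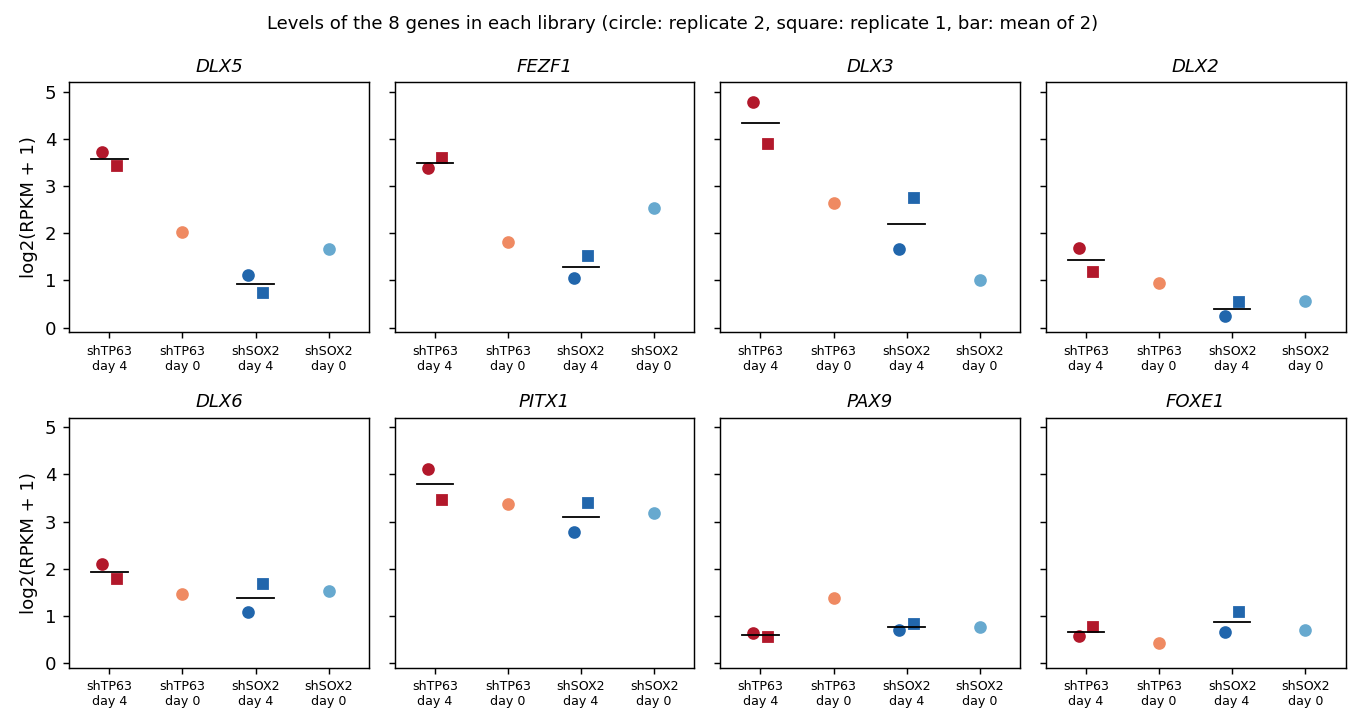
Level of each of the 8 genes as log2(RPKM + 1), vertical axis, in the 4 groups, horizontal axis, with 1 symbol per library and a bar at the mean of 2 induced libraries. DLX5, FEZF1 and DLX3 are at 3.39 to 4.78 in induced shTP63 cells and at most 2.75 in any other library, while PITX1 stays between 2.78 and 4.12 and FOXE1 between 0.43 and 1.07.

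Set side by side as RPKM, which is per length, the order of the 8 genes differed between groups. In induced shTP63 cells DLX3 at 20.2 led, followed by PITX1 at 13.2, DLX5 at 11.0, FEZF1 at 10.3, DLX6 at 2.86, DLX2 at 1.75, FOXE1 at 0.594 and PAX9 at 0.514. At day 0 of that line PITX1 led at 9.36, with DLX3 at 5.22, DLX5 at 3.09 and FEZF1 at 2.53. In induced shSOX2 cells PITX1 led at 7.68, with DLX3 at 3.93, DLX6 at 1.66 and FEZF1 at 1.46, and DLX5 at 0.915 was below DLX6 there. At their day 0 the order was PITX1 at 8.04, FEZF1 at 4.77, DLX5 at 2.17, DLX6 at 1.89 and DLX3 at 1.02. Among all tested genes, the level of DLX5 ranged from percentile 1.94 in its lowest library to 80.4 in its highest, and that of PITX1 from 61.3 to 85.6.

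In the shTP63 line 7 of the 8 genes were higher in both induced libraries than at day 0 and PAX9 was lower. The 5 tested genes were all among the 7. Of all tested genes 37.9% were higher in both and 38.5% lower, and the genes were chosen with this contrast known. At least 2-fold on the scale used, DLX5, DLX3 and FEZF1 were higher in both, against 3.05% of tested genes. In the shSOX2 line DLX5, FEZF1 and DLX2 were lower in both induced libraries, DLX3 was higher in both and 4 genes overlapped with day 0. Of the 5 tested genes 2 were lower in both and 1 was higher, with 40.2% and 33.3% of all tested genes. FEZF1 was the 1 gene at least 2-fold lower in both, against 0.987% of tested genes. Limma called none of the 5 in the shTP63 line, where it called 0.019% of tested genes, and 3 of the 5 and 1535 of all tested genes had an unadjusted p under 0.05. It called none in the shSOX2 line, where it called 0% and where 1 of the 5 and 1094 of all tested genes had an unadjusted p under 0.05. For the shTP63 response minus the shSOX2 response it also called 0%, with 2 of the 5, DLX5 and FEZF1, and 479 of all tested genes at an unadjusted p under 0.05. Both induced shTP63 libraries above and both induced shSOX2 libraries below their day 0 was the pattern of DLX5, FEZF1 and DLX2, and of 8.13% of tested genes. DLX2 is not one of the tested genes.

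Between the induced lines limma called 0.759% of tested genes, 80 of 10536, and DLX5 and FEZF1 were among the 26 called higher with the TP63 hairpin (0.247%), while 54 were called lower (0.513%). The difference itself uses neither day 0 library, although both entered the filter and the mean-variance trend of the fit. In this contrast 3 of the 5 and 2424 of all tested genes had an unadjusted p under 0.05. The calls of DLX5 and FEZF1 held without either shTP63 day 4 library and were lost with no filter on low values. Without either shSOX2 day 4 library they were lost along with every other call of this contrast. The difference was then 2.46 without shSOX2 replicate 1 and 2.84 without replicate 2 for DLX5, and 2.45 and 1.98 for FEZF1. DLX3, at 2.14, was not called, and it was called without shTP63 day 4 replicate 1. The median log2 difference was 2.14 over the 5 genes and 0.05 over all tested genes. Every induced shTP63 library was above every induced shSOX2 library for 6 of the 8 genes, the 5 tested ones among them, against 30.5% of tested genes. PAX9, which was not tested, was lower in each, against 26.6% of tested genes, and FOXE1 overlapped. DLX5, DLX3 and FEZF1 were at least 2-fold higher in every such pair, against 0.873% of tested genes. Because the genes were chosen with this contrast known, nothing is read from these counts.

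**Figure D3:**
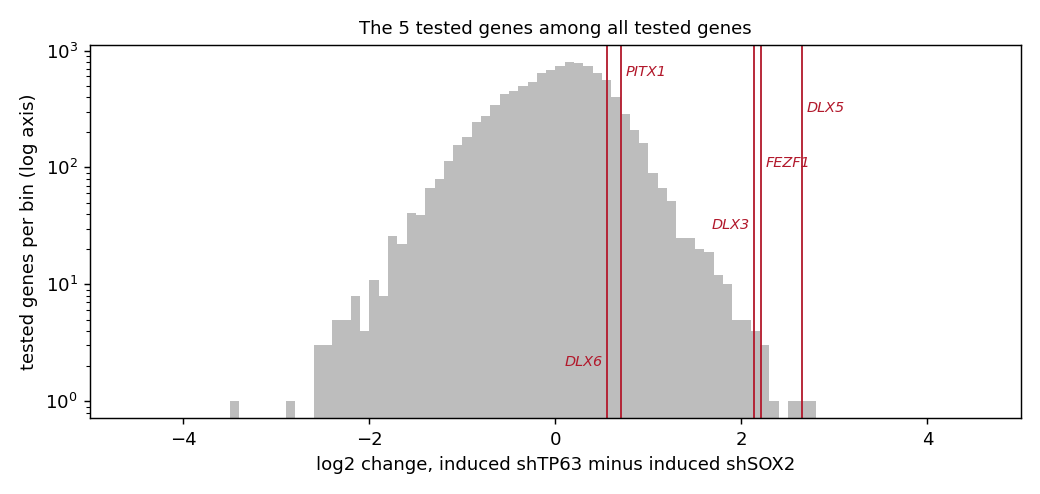
Number of tested genes per bin of 0.1 (log axis) by log2 change between induced shTP63 and induced shSOX2 cells, with lines at the 5 tested genes. DLX3, FEZF1 and DLX5, at 2.14 to 2.65, lie in the sparse upper end, and DLX6 and PITX1, at 0.56 and 0.71, lie within the bulk.

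**Figure D4:**
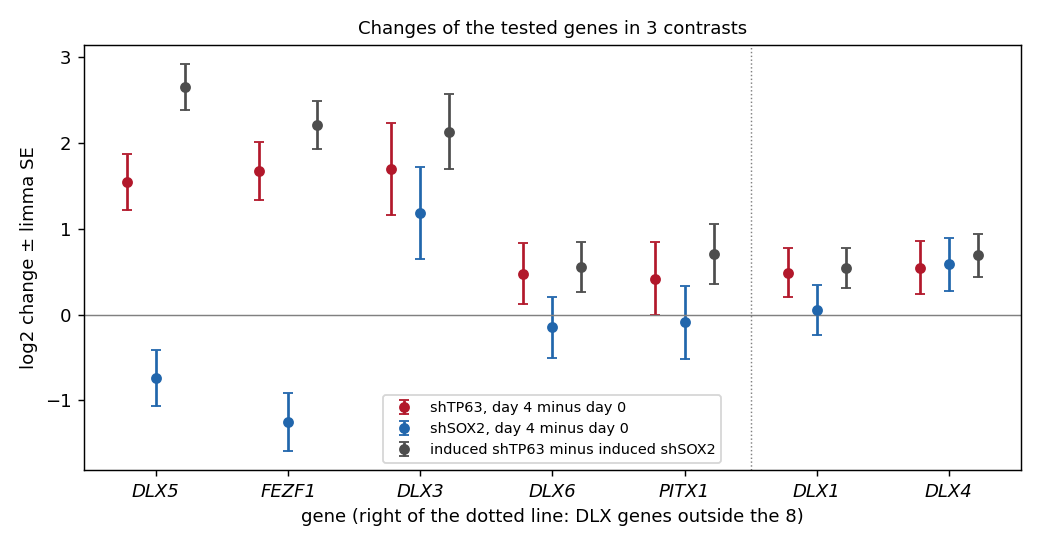
Log2 change with limma SE, vertical axis, of the 5 tested genes and of DLX1 and DLX4, horizontal axis, in the shTP63 line, the shSOX2 line and between the induced lines. DLX5 and FEZF1 have positive values with the TP63 hairpin and negative ones with the SOX2 hairpin, and DLX3 has positive values with both.

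A list for endothelin and BMP signalling, which feed DLX genes in the arches, held targets of BMP signalling as well as ligands. Of its 18 tested genes, 4 BMP targets were called higher in induced shTP63 than in induced shSOX2 cells and 0 genes lower. The shares of all tested genes were 0.247% and 0.513%. In that contrast 11 of the 18 and 2424 of all 10536 tested genes had an unadjusted p under 0.05, with 7 of the 11 higher and 4 lower. In the other 3 contrasts 0 of the 18 passed, with 6 at an unadjusted p under 0.05 for shTP63, 2 for shSOX2 and 2 for the difference of responses. The list had a median log2 difference of 0.41, against 0.05 over all tested genes. Like the other lists, it was chosen with earlier results of these data known, so nothing is read from these counts. ID2, ID3 and ID4 encode inhibitors of basic helix-loop-helix factors and MSX2 a homeodomain factor, all known BMP targets, and they are the 4 that were called. ID2 was at 5.51 and 5.45 in induced shTP63 cells, against 3.12 and 2.25 in induced shSOX2 cells, a log2 difference of 2.80 ± 0.35 (limma adjusted p = 0.0326). ID4 differed by 2.18 ± 0.26, MSX2 by 2.08 ± 0.29 and ID3 by 1.87 ± 0.31 (limma adjusted p = 0.0326, 0.0418 and 0.0490). All 4 were already higher in uninduced shTP63 than in uninduced shSOX2 cells, by 1.32 for MSX2, 1.22 for ID3, 0.81 for ID4 and 0.70 for ID2, and none passed against day 0 of its own line. Like the DLX5 call, these 4 calls were lost without either shSOX2 day 4 library, as was every other call of that contrast. The ligand gene BMP4 was higher after induction in both lines, with a log2 change of 1.79 ± 0.35 for shTP63 and 1.94 ± 0.35 for shSOX2, and neither passed (limma adjusted p = 0.131 and 0.294). The 4 genes of the list that were lower between the induced lines at an unadjusted p under 0.05 were BMP7 and 3 genes of the list named here only after their values were seen, and none passed. BMP7 differed by -0.90 ± 0.28 (limma adjusted p = 0.137). EDN1, for the ligand endothelin 1, differed by -1.19 ± 0.46 and ECE1, for the enzyme that activates it, by -1.04 ± 0.28 (limma adjusted p = 0.186 and 0.112). FST, for the ligand-binding protein follistatin, differed by -1.34 ± 0.35 (limma adjusted p = 0.107).

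Of 19 tested foregut and pharyngeal patterning genes 0 passed in any contrast, while 0 had an unadjusted p under 0.05 for shTP63, 2 for shSOX2, 0 for the difference of responses and 3 between the induced lines, with a median difference between the induced lines of 0.23. Those with the smallest p after induction were SOX2 itself, HHEX, IRX4 and TFAP2C. HHEX, a homeodomain factor of early foregut, had a log2 change of -0.69 ± 0.41 in the shTP63 line and -0.97 ± 0.41 in the shSOX2 line (limma adjusted p = 0.486 and 0.481). IRX4, an Iroquois homeobox gene, had changes of 0.72 ± 0.31 and 0.65 ± 0.31, and TFAP2C, for an AP-2 factor of surface ectoderm, of -0.59 ± 0.31 and -0.72 ± 0.31, and none passed (limma adjusted p = 0.349, 0.516, 0.425 and 0.485). Of the relatives of PITX1, PAX9, FOXE1 and FEZF1 only PAX7, a paired-box factor of muscle precursors, passed the filter besides the 8. It was at 3.50 and 3.03 in induced shTP63 cells, against 3.17 at day 0, and at 2.87 and 2.57 in induced shSOX2 cells, against 2.39, and no contrast passed.

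Of 8 tested epidermal and mucosal differentiation genes, the setting in which DLX3 is best known, 0 passed in any contrast. An unadjusted p under 0.05 was seen for 3 in the shTP63 line, 2 in the shSOX2 line and 2 for the difference of responses. Between the induced lines it was seen for 4 of the 8, and for 2424 of all 10536 tested genes. The cornified envelope gene CNFN had a log2 change of 2.06 ± 0.29 in the shTP63 line and 0.65 ± 0.29 in the shSOX2 line (limma adjusted p = 0.113 and 0.496). KRT4, a keratin gene of esophageal lining, was at 3.36 and 1.98 in induced shTP63 cells, against 0.87 at day 0, and at 1.67 and 0.62 in induced shSOX2 cells, against 0.65, with replicates over 1 apart in both lines. Its partner KRT13 had a log2 change of 0.77 ± 0.40 in the shTP63 line and 0.96 ± 0.40 in the shSOX2 line (limma adjusted p = 0.415 and 0.465). SPRR3, a cornified envelope gene of esophageal lining, was at 0.10 and 0.00 in induced shTP63 cells, against 1.16 at day 0, and at 0.04 and 0.06 in induced shSOX2 cells, against 2.73. It was thus near 0 in all 4 induced libraries, and its log2 change was -1.11 ± 0.26 in the shTP63 line and -2.69 ± 0.26 in the shSOX2 line (limma adjusted p = 0.150 and 0.106).

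Among 6 tested genes named elsewhere as targets or partners of the 8 factors, MSX2 was called higher in induced shTP63 than in induced shSOX2 cells, as given above, and SPP1 lower. SPP1 encodes osteopontin, a bone matrix protein. It was at 3.73 and 5.03 in induced shTP63 cells, against 7.95 and 7.62 in induced shSOX2 cells, a log2 difference of -3.41 ± 0.43 (limma adjusted p = 0.0326). Against day 0 its log2 change was -2.24 ± 0.53 in the shTP63 line and 0.82 ± 0.53 in the shSOX2 line, and neither passed (limma adjusted p = 0.156 and 0.606). The call between the induced lines is also among those lost without either shSOX2 day 4 library. TGFB3, for a TGF-beta ligand, had a log2 change of 0.91 ± 0.34 in the shTP63 line and 0.88 ± 0.34 in the shSOX2 line (limma adjusted p = 0.277 and 0.444). NRP1, for the receptor neuropilin 1, had -0.56 ± 0.41 and 1.32 ± 0.41 (limma adjusted p = 0.568 and 0.413).

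The 3 tested genes most like each tested one were taken by Pearson correlation across the 6 libraries, which form 4 groups of shared treatment. They were taken as the highest of 10536 candidate genes and are a description. For DLX5 they were GSN, BCORL1 and ZNF581 (r = 0.993, 0.993 and 0.990). GSN, for the actin-severing protein gelsolin, was at 2.95 and 2.63 in induced shTP63 cells, against 1.81 at day 0, and at 1.37 and 0.97 in induced shSOX2 cells, against 1.75. For FEZF1 they were ARIH1, RP4-622L5.2 and ZNF317 (r = 0.993, 0.990 and 0.987), for DLX3 ARF5, PTOV1 and B3GNT9 (r = 0.995, 0.991 and 0.989). For DLX6 they were GHITM, GPD1L and PUM2 (r = 0.990, 0.985 and 0.985) and for PITX1 the first were CREBL2 and C10orf26 (r = 0.992 and 0.988). A high r does not mean a like size of change. ARIH1, for a ubiquitin ligase, was at 2.61 in both induced shTP63 libraries and at 2.06 and 2.17 in induced shSOX2 cells, a smaller difference than that of FEZF1.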

How the data were processed

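Poly(A) RNA was fragmented, reverse transcribed with random primers and sequenced on an Illumina HiSeq instrument, per the labels' protocols, which give no strand-specific step. The deposited log2 values are named RPKM by the authors. They were read as log2(RPKM + 1). Sorted from the highest down, the libraries' values differed at no rank by more than 0.041 over the first 16167 ranks, so they were read as quantile-normalized there. Below that the libraries differ, since the uninduced shTP63 library is at 0. With the log undone to base 2, RPKM times exon length (GENCODE version 29, 26796 genes matched by name) accounted for 0.507 to 0.525 of all mapped reads. With base e it came to 3.24 to 3.96 times all mapped reads, so base 2 was used. Per the submitters' processing notes the genome was hg19, with no aligner, counter or annotation given in the sources used here. Depth is unknown.

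The filter kept genes whose RPKM averaged 1 or more (10536 of 48644). In R 4.3.3, limma 3.58.1 took all 6 libraries as 4 groups with a mean-variance trend (2 residual and about 5.53 prior degrees of freedom), which gives each single day 0 library the spread of the induced pairs. P-values are two-sided, adjusted over all tested genes after Benjamini and Hochberg. Tables and figures were made in Python 3.11.15. The genes and lists were chosen with earlier results of these data known. Lists outside the 8 were endothelin and BMP signalling with BMP targets, foregut patterning, relatives, differentiation genes, reported targets and cell type markers. The text names SOX2, TP63, genes of a list that passed or had the smallest p after induction, and the 3 genes most like each tested one (2 for PITX1). Alternatives were the filter, the pseudocount, the scaling, the control library, the trend, each induced library left out, the line alone and a replicate block.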

Additional observations from a re-analysis of the deposited data

Results flagged for a closer look

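DLX5, FEZF1 and DLX2 differed between the hairpin lines in direction, being higher in both induced shTP63 libraries and lower in both induced shSOX2 libraries than in the day 0 library of the same line. The shTP63 response minus the shSOX2 response was 2.29 for DLX5, 2.92 for FEZF1 and 0.67 for DLX2 on the log2 scale. For DLX5 and FEZF1 limma tested that difference, and neither passed over all genes (limma adjusted p = 0.995 and 0.962). DLX2 did not pass the filter, and its difference was not tested. Its changes in the shSOX2 line were -0.31 and -0.03, the second smaller than the 0.29 between the induced replicates. Of all tested genes 8.13% had this pattern of directions.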

How the results depend on the processing

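Of 252 alternative values for the 5 tested genes, 102 equal the main value, in settings such as another filter or no trend that change the test and not the difference. Of the other 150, 123 moved by less than the spread between replicates and 27 by more. DLX5 and FEZF1 were higher in induced shTP63 than in induced shSOX2 cells under the 11 and 12 alternatives that could be computed, some of which leave the difference as it is, at 1.43 to 3.49 and 1.24 to 2.78 on the log2 scale. They were called in 8 and 9 of these, and not without either shSOX2 day 4 library or with no filter. DLX3 ranged from 1.48 to 2.68 there and was called in 1. In the shTP63 line DLX5 (1.73) and DLX3 (2.51) were called only when the 2 day 0 libraries were pooled. The counts of called genes, 0 for shSOX2, 2 for shTP63, 0 for the difference of responses and 80 between the induced lines, were 1090, 37, 1193 and 25 with no filter, which tests all 48644 genes. At a mean RPKM of at least 5 they were 1 for shTP63 and 44 between the induced lines. With a pseudocount of 0.1 they were 5 and 46, and with a pseudocount of 5 they were 1 for shSOX2 and 30 between the induced lines. With pooled day 0 libraries they were 2 for shSOX2 and 291 for shTP63, with these libraries swapped between lines 4 and 49, and with the 3 libraries of the line alone 11 and 0. Leaving out each induced library gave 0 to 11 genes for shSOX2, 0 to 80 for shTP63, 0 to 5 for the difference of responses and 0 to 324 between the induced lines. Without the uninduced shTP63 library, a setting chosen after seeing the data, 75 were called between the induced lines. The replicate block gave 0 for shTP63 and 18 between the induced lines, DLX5 and FEZF1 among them. The numbers were not taken to pair the libraries, since the differences of replicate 2 from replicate 1 correlated at -0.07 between the induced lines. Median-ratio scaling and no trend changed no count by over 1.5 times. The cause of these changes was not tested. Depth is unknown, and levels near 0 limit DLX2, PAX9 and FOXE1.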
